A study of Mus musculus with 6 samples.

Results

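The 33 genes described here encode proteins of the rod photoreceptor: the light-activated signalling cascade, the proteins that shut it off and reset it, the structure and surrounding matrix of the outer segment, enzymes that clear spent retinoid, and the transcription factors of rod identity. Of the 33, 10 were classed as genes of rods, 20 as genes of rods and cones, and 3 (Gnb1, Gnb5 and Unc119) as more widely expressed. All 33 are called rod genes below. They were taken by name from the 54532 genes of the count table, and each name had a single row with at least 1643 counts in every library. The libraries came from whole retina of wild-type (WT) C57BL/6J mice at postnatal day 17, 3 from normal mice and 3 from mice labelled OIR. OIR commonly stands for oxygen-induced retinopathy. In that model, high oxygen stops vessel growth in the young retina, and the hypoxia that follows in room air drives abnormal new vessels. Neither the oxygen schedule nor the number of animals per library is stated in the labels, so p-values measure the spread between these libraries, which may be partly technical. In whole-tissue RNA, fewer rods and less RNA per rod cannot be told apart, nor can rods and cones for the shared genes.

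As background, rods are the most numerous cells of the mouse retina and carry the outer segment, a modified cilium packed with membrane discs. Light-activated visual pigment switches on the G protein transducin, transducin releases the inhibitory subunits of the cyclic GMP phosphodiesterase PDE6, and the fall in cyclic GMP closes cation channels in the outer segment membrane. Phosphorylation of the pigment, arrestin binding, GTP hydrolysis and calcium-regulated guanylate cyclase then restore the dark state. The homeodomain factor CRX and the leucine zipper factor NRL act at the promoters of many of these genes.

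To show the sequence before the start of these genes, the 250 bases before the RefSeq transcription start (GRCm38.p6, the assembly of mm10) were read for the 26 of 33 members that had an entry. The letters TAATCC, the core of CRX-type sites, were searched on both strands (GGATTA on the other strand), and so were the letters TGCTGA, a half-site of NRL-type elements (TCAGCA on the other strand). No match of one overlaps a match of the other in the windows printed here. The CRX-type core was in the windows of 11 of the 26 members and in 6.25% of all 32851 windows of the same length in the table. The NRL half-site was in those of 5 of the 26 members and in 16.1% of all windows. Among the 8 members with a window that passed the test described next, 3 held the CRX-type core, and among the 18 others 8 did. Unc119 had several start sites in the table and was counted once, as holding a motif if any of its windows did. Its CRX-type and NRL matches lie in different windows. The shares over the table are per window, so a member with several windows had more chances of a match. The windows of 4 members are printed because they pair the genes with the steepest falls, Sag and Guca1a, with members that did not pass the test, Cngb1 and Crx, whose windows hold the same core. Each runs 5′ to 3′ on the gene's strand and ends at the base before the start, with the motif matches in capitals.
Sag (chr1:87803430-87803679, plus strand): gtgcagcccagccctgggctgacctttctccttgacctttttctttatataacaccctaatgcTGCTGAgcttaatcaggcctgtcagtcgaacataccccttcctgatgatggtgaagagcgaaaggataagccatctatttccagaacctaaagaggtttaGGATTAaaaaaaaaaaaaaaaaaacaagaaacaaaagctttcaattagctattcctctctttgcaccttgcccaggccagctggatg
Guca1a (chr17:47400607-47400856, minus strand): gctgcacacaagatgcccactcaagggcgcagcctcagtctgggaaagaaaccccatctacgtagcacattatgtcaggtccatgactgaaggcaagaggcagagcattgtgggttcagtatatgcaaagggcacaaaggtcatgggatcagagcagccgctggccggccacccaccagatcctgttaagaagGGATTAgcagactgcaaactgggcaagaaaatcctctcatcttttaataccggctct
Cngb1 (chr8:95306586-95306835, minus strand): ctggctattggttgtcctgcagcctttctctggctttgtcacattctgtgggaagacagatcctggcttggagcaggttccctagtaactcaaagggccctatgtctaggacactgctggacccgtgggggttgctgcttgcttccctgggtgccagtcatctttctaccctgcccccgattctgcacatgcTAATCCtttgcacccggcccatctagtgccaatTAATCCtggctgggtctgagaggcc
Crx (chr7:15879956-15880205, minus strand): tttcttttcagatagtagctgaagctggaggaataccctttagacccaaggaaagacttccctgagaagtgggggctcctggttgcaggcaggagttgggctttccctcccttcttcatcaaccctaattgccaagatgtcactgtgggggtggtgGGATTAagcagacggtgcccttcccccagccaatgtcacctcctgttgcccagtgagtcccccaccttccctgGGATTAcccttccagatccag
In the Sag window the CRX-type core lies on the other strand and begins 87 bases before the start, and the NRL half-site begins 187 bases before it. The Guca1a core lies on the other strand and begins 57 bases before the start. Cngb1 has cores beginning 58 and 25 bases before its start, both on the gene's strand, and Crx has cores beginning 94 and 21 bases before its start, both on the other strand. A match is a description of these letters and shows no binding.

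Fitted levels were lower in OIR retina for 26 of the 33 members, or 78.8%, mostly by a little. The same held for 66.0% of the 1878 genes at least as abundant as the lowest member, and for 48.2% of all genes tested. The steepest falls that passed the test were those of Guca1a, Sag, Gnat1, Pde6b and Pde6a. Of the 33 members, all with enough counts to be tested, 9 fell and 1 rose in edgeR's quasi-likelihood test at a Benjamini-Hochberg adjusted p under 0.05 over all 17108 genes tested, and 23 did not pass. Over all genes tested, 19.8% passed, 11.1% upward and 8.73% downward. Among the 1878 genes at least as abundant as the lowest member, which are measured about as precisely, 30.1% passed, 22.8% downward and 7.29% upward. The members' 30.3%, 27.3% downward, is close to that share of abundant genes and so is not a feature of the rod genes as a list. The median log2 fold change was −0.16 over the members, −0.089 over those abundant genes and 0.013 over all genes tested. The groups did not overlap for 17 of 33 members, or 51.5%, of which 15 were lower and 2 higher in OIR libraries. Over all genes tested that share was 36.8%, and for the abundant genes alone it is not given here. Without the library OIR 1, 5 members fell and none rose. The fall of 5 members, Gnat1, Pde6a, Pde6b, Sag and Guca1a, passed in each of 15 alternative fits (other tools, scalings and filters, a block, a covariate, and each library left out).

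The members took 5.01%, 5.15% and 4.75% of all counts in the normal libraries and 4.39%, 4.40% and 4.48% in the OIR libraries, so every OIR library lay below every normal library. The activation cascade made most of that gap, with 2.08% ± 0.0468 of counts in normal and 1.67% ± 0.0591 in OIR retina (SD, n = 3). The share of the transcription factors was 0.372% ± 0.0267 and 0.369% ± 0.00728. By role, the median log2 fold change was −0.29 for the 8 activation genes, −0.19 for the 12 shut-off and feedback genes, −0.15 for the 3 retinoid enzymes, −0.078 for the 7 structural, matrix and trafficking genes and −0.017 for the 3 transcription factors. The last value turned to 0.026 with library totals in place of scaling factors. Roles were not tested against each other.

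**Figure D1:**
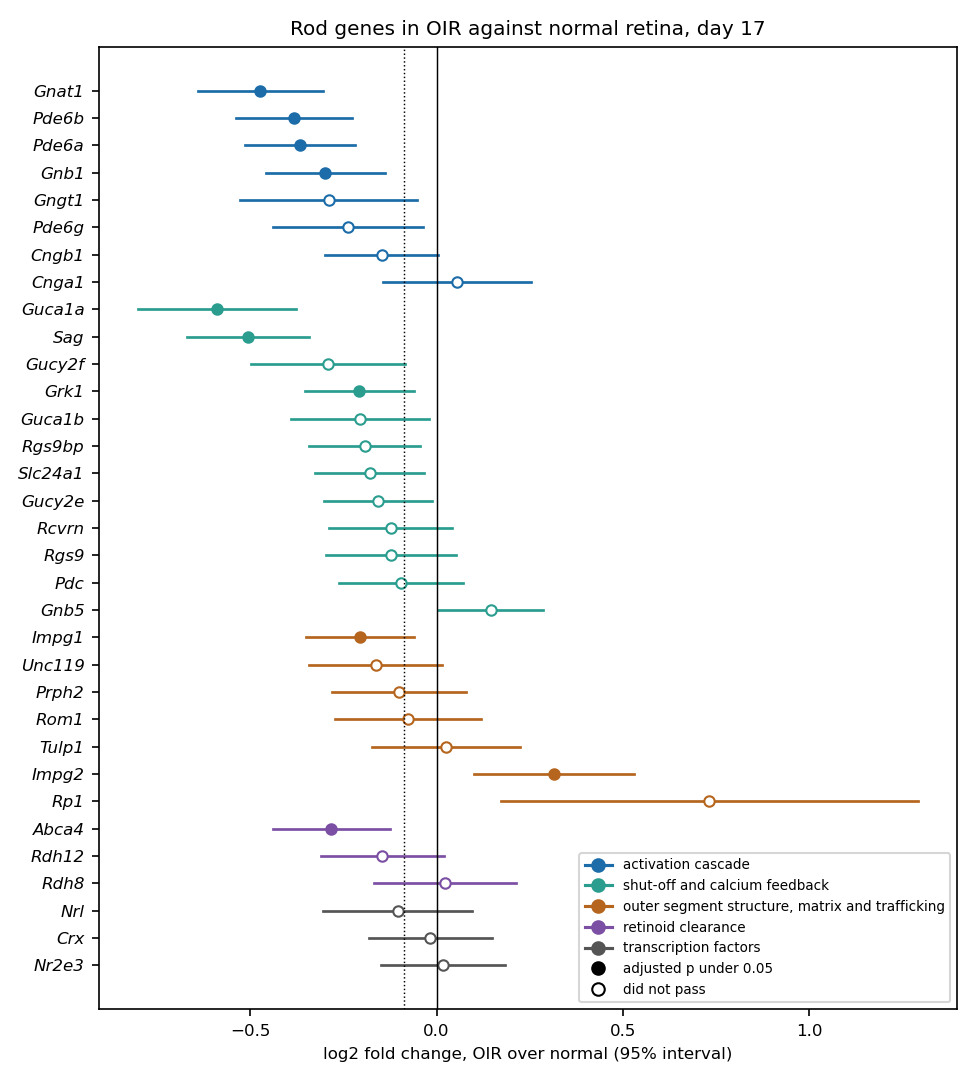
Log2 fold change of each of the 33 rod genes, OIR over normal, with its 95% interval from edgeR's quasi-likelihood fit (x axis), grouped and coloured by role. Filled points have an adjusted p under 0.05. The solid line marks 0 and the dotted line the median of abundant genes, −0.089. Filled falls number 4 of 8 in the activation group, 3 of 12 in the shut-off group, 1 of 7 in the structural group, 1 of 3 in the retinoid group and 0 of 3 among the transcription factors, and Impg2 is the filled point to the right of 0.

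The transducin α subunit gene Gnat1 (ENSMUSG00000034837, chromosome 9, 107674474 to 107679712, minus strand, mm10), which carries the signal from pigment to PDE6, had the highest level per length of the 33. It read 10212, 9532 and 9415 CPM (counts per 1e6 counts, scaled with TMM factors) in the normal libraries and 6669, 6906 and 7435 CPM in the OIR libraries. The groups lay far apart, with a log2 fold change of −0.47, a standard error of 0.0761 and an adjusted p of 0.00158 in the edgeR test. Gnb1, the β1 subunit that many cell types also express, had 4354, 4134 and 4253 CPM in normal and 3293, 3395 and 3669 CPM in OIR libraries. It fell by 18.7% (edgeR adjusted p = 0.015), and every OIR library was below every normal one. The fall of Gnb1 no longer passed without OIR 1 (log2 change −0.27, edgeR adjusted p of 0.0576). The rod γ subunit gene Gngt1 had 444, 531 and 412 CPM against 351, 355 and 428 CPM. Its groups overlapped through Normal 3 and OIR 3, and its log2 change of −0.29 (95% interval −0.53 to −0.05) did not pass, with an edgeR adjusted p of 0.0858. Without OIR 3 the change was −0.40 and passed (edgeR adjusted p of 0.0385).

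The genes of both catalytic PDE6 subunits fell. Pde6a, the α subunit gene (chromosome 18, 61220482 to 61289924, plus strand), had 1759, 1837 and 1864 CPM in normal and 1387, 1412 and 1437 CPM in OIR libraries. Pde6b, the β subunit gene (chromosome 5, 108388391 to 108432397, plus strand), had 1655, 1727 and 1756 CPM in normal and 1281, 1274 and 1386 CPM in OIR libraries. Neither gene had overlapping groups, and the log2 changes were −0.37 and −0.38 with edgeR adjusted p of 0.00323 and 0.00336. The ratio of Pde6a to Pde6b per kilobase within a library was 1.18 in each normal library and 1.203, 1.232 and 1.153 in the OIR libraries. The inhibitory γ subunit gene Pde6g had 1913, 1697 and 1518 CPM against 1377, 1448 and 1526 CPM, with Normal 3 just below OIR 3. Its log2 change was −0.24 (95% interval −0.44 to −0.04) and did not pass, with an edgeR adjusted p of 0.0955. It passed without Normal 3, at −0.32 (edgeR adjusted p of 0.0389).

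The genes of the cyclic GMP-gated channel, the last step of the cascade, did not pass. Cnga1, the pore-forming subunit, had 608, 771 and 644 CPM in normal libraries and 701, 686 and 714 CPM in OIR libraries. The OIR values sat inside the normal range, and the 95% interval of the log2 change ran from −0.14 to 0.25. Without Normal 1 the change was −0.015. Cngb1, the modulatory subunit, had 818, 836 and 757 CPM against 716, 744 and 717 CPM. Its groups did not overlap, but a log2 change of −0.15 missed the threshold (edgeR adjusted p of 0.165).

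**Figure D2:**
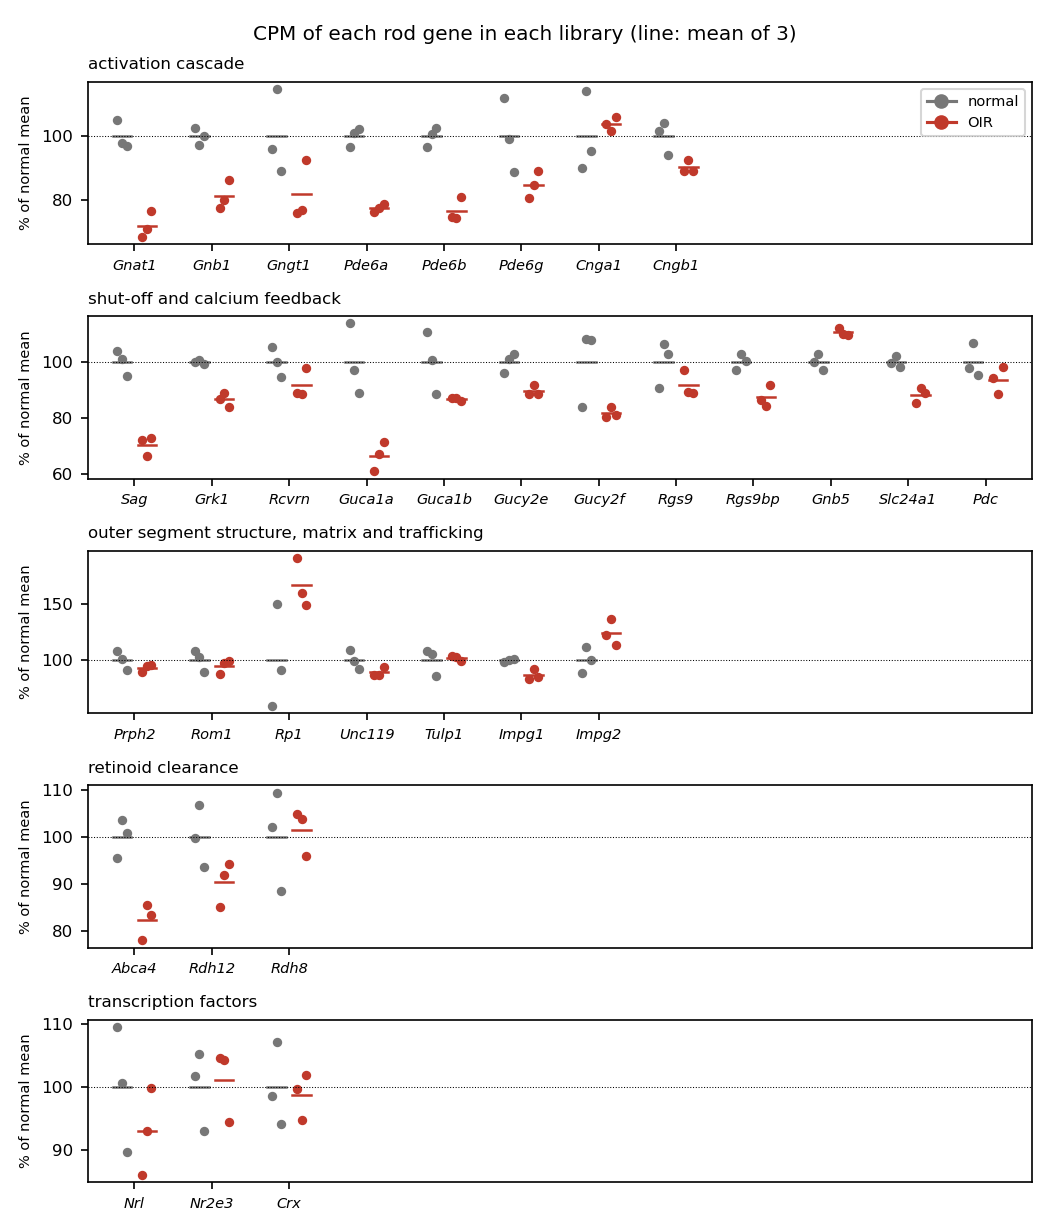
CPM of each rod gene in each library as a percent of that gene's mean over the normal libraries (y axis, with its own range in each panel), in panels by role. Grey points are normal and red points OIR libraries, and each line is the mean of 3. Gnat1, Pde6a, Pde6b, Sag and Guca1a have red points well below the grey ones, and the normal libraries of Rp1 are spread widely.

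Among the shut-off genes, arrestin and a cyclase activator fell most, and both were classed as genes of rods and cones. Sag (ENSMUSG00000056055, chromosome 1, 87803680 to 87845158, plus strand) encodes rod arrestin, which caps the phosphorylated pigment. It had 3992, 3878 and 3654 CPM in normal and 2767, 2544 and 2796 CPM in OIR libraries. All OIR libraries were below all normal libraries by a wide margin, with a log2 change of −0.51, a standard error of 0.074 and an edgeR adjusted p of 0.00086, a fall in level of 29.7%. Guca1a (ENSMUSG00000023982, chromosome 17, 47394558 to 47400584, minus strand) encodes a calcium sensor that activates guanylate cyclase when calcium drops. Its values were 221, 189 and 173 CPM in normal and 119, 131 and 139 CPM in OIR libraries. That was the steepest fall of any member, −0.59 on the log2 scale with a standard error of 0.0959 (edgeR adjusted p of 0.0017). Its neighbour on the chromosome, Guca1b (47385393 to 47392967, plus strand), encodes the related activator and had 888, 808 and 712 CPM against 700, 698 and 691 CPM. The groups of Guca1b did not overlap, but its log2 change of −0.20 did not pass (edgeR adjusted p of 0.117). It passed without Normal 3, at −0.29 (edgeR adjusted p of 0.0361). The ratio of Guca1a to Guca1b per kilobase was 0.697, 0.655 and 0.680 in normal libraries and 0.473, 0.523 and 0.562 in OIR libraries, so it too separated the groups.

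Grk1, the kinase that phosphorylates the activated pigment, had 1904, 1920 and 1889 CPM in normal and 1652, 1695 and 1601 CPM in OIR libraries. It was clearly separated but stood at the threshold, with a fall of 13.4% and an edgeR adjusted p of 0.0491. The fall of Grk1 did not pass without Normal 3 (log2 change −0.22), OIR 1 (−0.21), OIR 2 (−0.24) or OIR 3 (−0.20). Recoverin (Rcvrn), a calcium sensor that restrains this kinase, had a log2 change of −0.12 with overlapping groups. The guanylate cyclases that rebuild cyclic GMP both stood lower without passing. Gucy2e had 665, 698 and 712 CPM against 612, 635 and 613 CPM, and passed without Normal 1 (log2 change −0.19, edgeR adjusted p of 0.0437). Gucy2f, the X-linked cyclase gene (chromosome X, 142081160 to 142196931, minus strand), had 175, 226 and 225 CPM against 167, 175 and 169 CPM. Normal 1 lay next to the OIR libraries, the adjusted p was 0.0501 in the edgeR test, and without Normal 1 the log2 change went from −0.29 to −0.40 with an edgeR adjusted p of 0.000878.

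The complex that speeds GTP hydrolysis by transducin consists of Rgs9, the long splice form of Gnb5 and the membrane anchor Rgs9bp. Rgs9 had 419, 493 and 476 CPM in normal and 449, 413 and 411 CPM in OIR libraries, with a log2 change of −0.12 and overlapping groups. Rgs9bp had 758, 805 and 784 CPM against 676, 660 and 717 CPM, a log2 change of −0.19 with an edgeR adjusted p of 0.0711. It passed without Normal 1 (−0.22, edgeR adjusted p of 0.0311), and also with DESeq2 and limma-voom on all libraries. Gnb5, which many neurons express, stood on the other side. It had 585, 602 and 567 CPM in normal and 656, 643 and 642 CPM in OIR libraries, all OIR values above all normal ones, but its log2 change of 0.15 did not pass (edgeR adjusted p of 0.144). Within libraries, the ratio of Rgs9 to Gnb5 per kilobase was 0.349, 0.399 and 0.409 in normal and 0.334, 0.314 and 0.313 in OIR retina. The kit as named does not mark strand in its standard form, and 248 of the 3115 exon bases of Gnb5 are shared with an antisense gene that had 379 counts in all against 61422 for Gnb5.

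Slc24a1, the rod exchanger that extrudes calcium, had 1265, 1298 and 1245 CPM against 1084, 1151 and 1127 CPM. Its groups did not overlap, and its log2 change of −0.18 did not pass (edgeR adjusted p of 0.0828). Without Normal 1 it just passed (−0.18, edgeR adjusted p of 0.0496), and it also passed with DESeq2 and limma-voom on all libraries. Phosducin (Pdc), which binds transducin βγ subunits, had a log2 change of −0.10 (95% interval −0.26 to 0.071) with overlapping groups.

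The disc rim proteins peripherin-2 and ROM1, which shape the edge of each outer segment disc, had levels that overlapped between the groups. Prph2 had 4423, 4138 and 3722 CPM in normal and 3653, 3871 and 3924 CPM in OIR libraries, a log2 change of −0.10 with a 95% interval of −0.28 to 0.078. Rom1 had 1608, 1520 and 1321 CPM against 1299, 1439 and 1477 CPM, a log2 change of −0.078 whose 95% interval ran from −0.27 to 0.12. Both intervals stop short of the change of −0.47 fitted for Gnat1, though that difference was not tested. The trafficking genes Unc119, a lipid-binding chaperone of transducin α, and Tulp1, which acts in transport to the outer segment, had log2 changes of −0.16 and 0.026 and overlapping groups. The change of Tulp1 turned to −0.071 without Normal 3.

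Rp1, a microtubule-associated protein of the axoneme, was the most variable member. It had 691, 1736 and 1055 CPM in the normal libraries and 2209, 1849 and 1725 CPM in the OIR libraries. The highest normal library, Normal 2, lay just above the lowest OIR library, OIR 3, and as a fold the normal libraries of Rp1 lay further apart than the group means of any other member. The log2 change of 0.73 had a standard error of 0.253 and did not pass (edgeR adjusted p of 0.0682). Without Normal 2 it was 1.14 with an edgeR adjusted p of 0.00103. Abca4, a gene of similar length (12022 against 12311 bases), did not show this spread, with 1158, 1256 and 1222 CPM in the normal libraries. Rpgrip1, a photoreceptor gene outside the members, was also spread widely, with 791, 1523 and 1136 CPM in the normal libraries. Its OIR libraries had 1248, 1188 and 1007 CPM. A wide spread among the normal libraries was thus not limited to Rp1, and its cause was not tested.

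The genes of the matrix between photoreceptors moved in opposite directions. Impg1 and Impg2 encode proteoglycans that surround the outer segments. Impg1 had 352, 356 and 361 CPM in normal and 296, 328 and 303 CPM in OIR libraries, and fell by 13.3% (edgeR adjusted p of 0.0495). Impg2 had 467, 588 and 527 CPM against 647, 721 and 600 CPM, and was the member that rose, by 24.4% (edgeR adjusted p of 0.0441). Neither gene's groups overlapped, and the ratio of Impg1 to Impg2 per kilobase went from 1.92, 1.55 and 1.75 to 1.17, 1.16 and 1.29. Both calls were at the threshold. Impg1 did not pass without Normal 2 (log2 change −0.21), Normal 3 (−0.20), OIR 1 (−0.18), OIR 2 (−0.26) or OIR 3 (−0.20). Impg2 did not pass without Normal 1 (0.23), Normal 3 (0.31), OIR 1 (0.32), OIR 2 (0.23) or OIR 3 (0.36).

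Of the retinoid enzymes and transporters, Abca4 passed. This gene encodes the disc membrane flippase that clears retinaldehyde conjugates, and it had 944, 1036 and 1010 CPM in OIR libraries, all below the normal values given above. Its log2 change was −0.28 with a standard error of 0.0709 (edgeR adjusted p of 0.0178), and without OIR 1 it was −0.25 and did not pass (edgeR adjusted p of 0.0954). Rdh12 and Rdh8, dehydrogenases that reduce retinaldehyde, had log2 changes of −0.15 and 0.022 with overlapping groups. The value of Rdh8 was −0.060 without Normal 3, −0.0059 without OIR 1, −0.0032 without OIR 2 and −0.00026 with the sex of each library as a covariate.

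The transcription factors of rod identity overlapped between the groups in every case. Nrl, which directs precursors to the rod fate, had 2043, 1878 and 1673 CPM in normal and 1605, 1734 and 1864 CPM in OIR libraries. Nr2e3, a nuclear receptor that represses cone genes in rods, had 611, 631 and 558 CPM against 628, 626 and 567 CPM. Crx had 1302, 1415 and 1243 CPM against 1317, 1251 and 1346 CPM. The 95% intervals of the log2 changes were −0.30 to 0.10 for Nrl, −0.15 to 0.18 for Nr2e3 and −0.18 to 0.15 for Crx. The sign of the Nr2e3 and Crx changes is not settled by these libraries: Nr2e3 was −0.034 on leaving out Normal 3, −0.012 for OIR 1 and −0.015 for OIR 2, and Crx was 0.026 with library totals, 0.034 without Normal 2 and 0.0029 without OIR 2.

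Ratios within a library do not depend on how libraries are scaled. The summed counts of the activation genes over those of the transcription factors were 5.50, 5.37 and 5.93 in the normal libraries and 4.44, 4.49 and 4.58 in the OIR libraries. Per kilobase, Gnat1 over Crx was 8.18, 7.03 and 7.90 in normal and 5.28, 5.76 and 5.76 in OIR libraries. Gnat1 over its partner Gnb1 was 3.30, 3.25 and 3.12 against 2.85, 2.87 and 2.86. In these ratios the OIR libraries lay below all normal ones. Gnat1 makes up much of the activation sum, and without it the sum over the transcription factors was 2.92, 2.94 and 3.22 in normal and 2.57, 2.58 and 2.61 in OIR libraries, still without overlap. The sum does not speak for each gene: Cnga1, Cngb1, Gngt1 and Pde6g did not pass. Gnat1 over Sag, 7.52, 7.22 and 7.57 in normal and 7.09, 7.98 and 7.82 in OIR libraries, overlapped. So did Gnat1 over its other partner Gngt1, with 26.7, 20.8 and 26.5 against 22.0, 22.6 and 20.1. Of 20 ratios computed, many of them sharing genes, 11 overlapped between the groups and 9 did not. Among single genes tested, the groups of 36.8% did not overlap, but the share among ratios of other genes was not computed. With 3 against 3 libraries an exact permutation test cannot go below p = 0.1, and the pairs and sums were chosen after the counts were seen, so no p is attached.

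**Figure D3:**
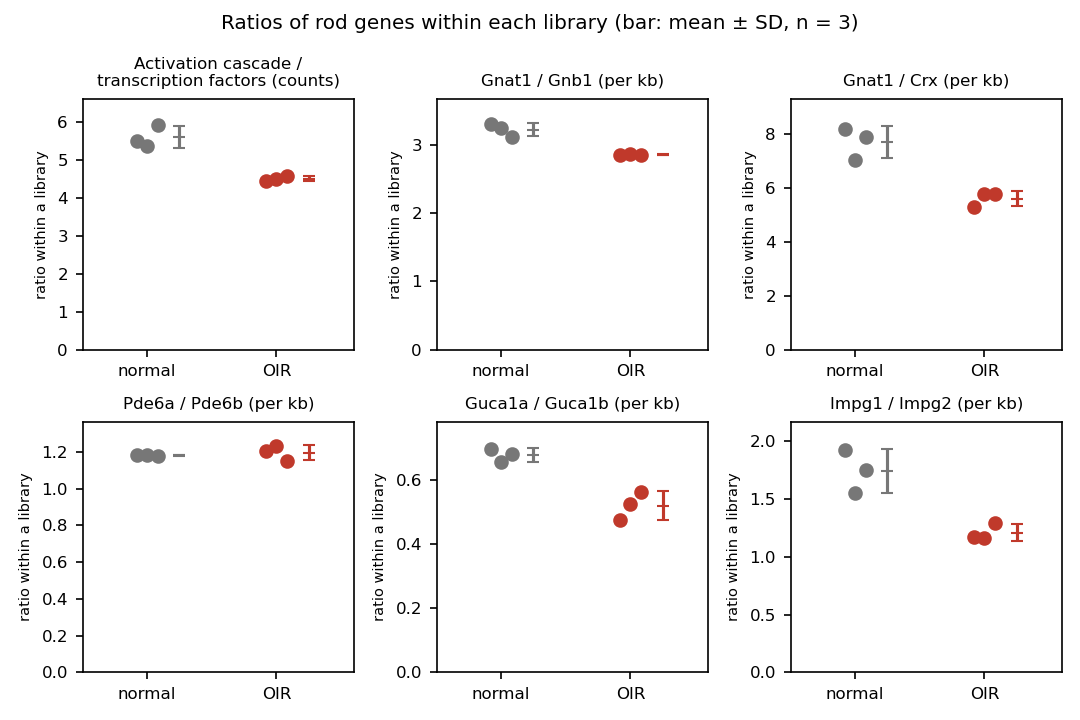
Ratios of rod genes within each library (y axis, from 0) for normal (grey) and OIR (red) libraries, with the mean ± SD of 3 beside the points. The first panel is a ratio of summed counts and the others are ratios of counts per kilobase. Pde6a over Pde6b overlaps between the groups, and the other 5 ratios are lower in every OIR library.

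Levels of different genes were set side by side per kilobase of gene length. In normal retina Gnat1 led with 3209 ± 142 CPM per kilobase (SD, n = 3), followed by Prph2 with 1364 ± 118 and Rcvrn with 1160 ± 62.2. Gnb1 with 995 ± 25.8 and Rom1 with 972 ± 96.4 came next and differed by less than their SD. At the bottom were Impg2 with 56.9 ± 6.51 and Gucy2f with 25.7 ± 3.57 CPM per kilobase. In OIR retina Gnat1 still led with 2312 ± 129, and Gucy2f was lowest with 21.0 ± 0.471. The 3 transducin subunits were far from equal, with Gngt1 at 132 ± 17.5 CPM per kilobase in normal retina. The deposited lengths count every annotated exon, which lowers the value of genes such as Gngt1 (3515 bases), Sag (8904) and Grk1 (8784). The order of genes by level per kilobase therefore depends on the annotation. So does the size of a ratio per kilobase between genes, though not its change between the groups. Across the 33 members, the log2 fold change had a Spearman correlation of −0.19 with the level per kilobase and 0.043 with gene length. These are descriptions across genes that share the same libraries.

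**Figure D4:**
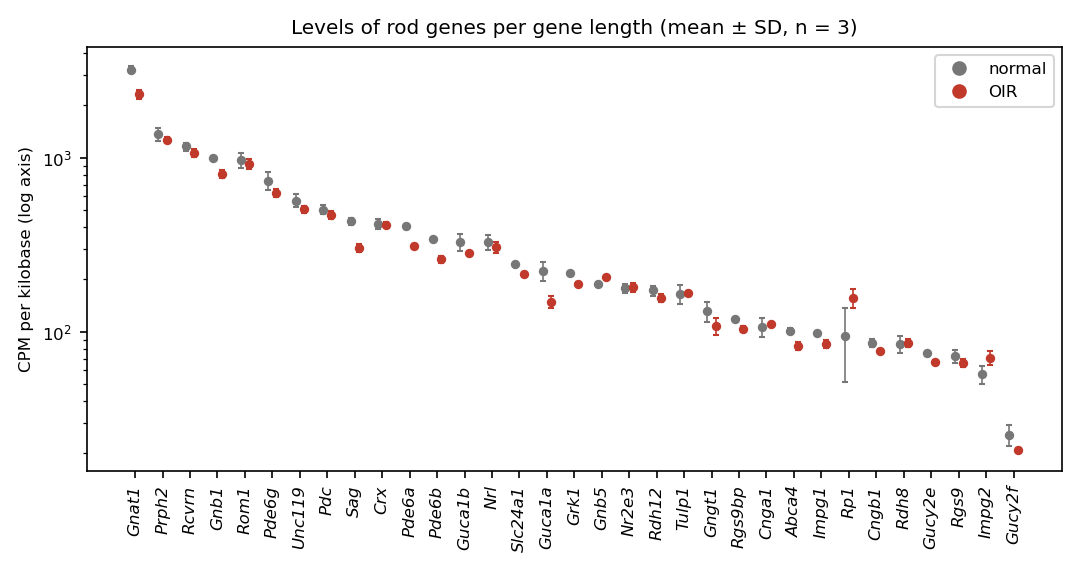
Mean CPM per kilobase of each rod gene (y axis, log scale) in normal (grey) and OIR (red) retina, with SD over 3 libraries as bars, in order of the normal level. Levels span from 3209 for Gnat1 to 25.7 for Gucy2f, and Rp1 has the widest bar.

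Of 28 photoreceptor genes outside the 33, for channels, cilium, synapse and regulation, 7 fell and none rose in the edgeR test, 21 did not pass, and the median log2 change was −0.13. The change was negative in 19 of them, or 67.9%. Both shares, with 25% lower, are near those of the abundant genes, of which 66.0% had a negative change and 22.8% passed downward. Among those that fell were Crb1, a polarity protein (−0.25), and Kcnv2, a potassium channel subunit (−0.24), with edgeR adjusted p of 0.0285 and 0.035. Of 14 cone genes, the cone transducin gene Gnat2 (−0.24) and the channel gene Cngb3 (−0.50) fell, Gnb3 rose (0.78) and 11 did not pass, with a median of −0.16. The 14.3% of cone genes that fell stand beside 8.73% of all genes tested, of which 11.1% rose. Most cone genes are less abundant than the lowest member, so the share of abundant genes does not serve for them. Cones and ON bipolar cells both express Gnb3. Rod bipolar cells, which receive rod signals, had markers with a steeper median, −0.39, and 7 of 9 fell, or 77.8%, beside the same 8.73%. Whether rod genes changed less than bipolar genes was not tested.

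Markers of other cells also moved with the groups. For scale, 11.1% of all genes tested passed upward and 8.73% downward. Summed over 8 pigment epithelium markers, of which 6 fell, the level ranged from 227 to 393 CPM in normal and from 125 to 152 CPM in OIR libraries, and Best1 was near 0 (0.658 CPM in normal retina). For 10 Müller glia markers, of which 5 fell and 1 rose, the sums ranged from 4868 to 5676 and from 3681 to 4450 CPM. Endothelial sums ranged from 423 to 491 and from 664 to 748 CPM, with 8 of 10 markers higher and none lower, and microglial sums from 72.5 to 88.8 and from 129 to 172 CPM, with 6 of 10 higher and none lower. Lens markers, a sign of lens carried over in dissection, did not pass in any of 8 cases but ranged from 5.69 to 311 CPM in normal and from 60.6 to 4375 CPM in OIR libraries, the highest being OIR 3. Without OIR 3, 8 members fell and none rose. Mitochondrial genes took 2.03% to 2.40% of counts in normal and 1.81% to 1.98% in OIR libraries. Their part in the rod results was not tested, beyond the fit without OIR 3.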

How the data were processed

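Per the labels' protocols, TRIzol RNA went into NEBNext Ultra RNA libraries. The submitters' processing notes name the mm10 build and, as tools, DESeq2 1.20.0, featureCounts 1.5.0-p3, HISAT2 2.0.5, CASAVA 1.8 and fastp. For the annotation release, the strand setting and read filters: not given in the sources used here. Raw counts per gene were deposited, 15818168 to 17163513 per library, and the lowest count of a member in any library was 1643. Columns were matched to samples by group, day and number in their names. The deposited gene length, defined by the authors' annotation, was used for CPM per kilobase. Of the 33 members, 31 had the same start and end in GENCODE vM21, and 2 shared exon bases with another gene. Libraries of one group were never closer than counting noise allows (7.20 to 23.1 chi-square units per degree of freedom), and all 6 entered.

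Genes were tested in R 4.3.3 with edgeR 4.0.16 (quasi-likelihood F test, TMM factors, filterByExpr with minimum count 10 and total 15), using all 6 libraries without covariates and calling an adjusted p under 0.05. The standard errors given are the log2 fold change over the square root of F, and 95% intervals use the fit's total degrees of freedom. All fold changes are OIR over normal. The members and lists were chosen with earlier results of these data known, so lists are described by counts and medians without a test. All 33 members are named, and of each other list up to 4 genes with the smallest adjusted p, some of which are not reported here. Best1 and Rpgrip1 were named after their values were seen. The 15 alternative fits were DESeq2 1.42.0, limma-voom (limma 3.58.1), median-of-ratios factors, library totals, TMM without photoreceptor genes, no filter, a minimum of 1 CPM in 3 libraries, a block for the replicate number, a covariate for sex (Xist against Y-linked genes), and leaving out each library. A threshold of 0.01 was also tried.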

Additional observations from a re-analysis of the deposited data

How the results depend on the processing

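With 3 libraries per group, changes of the size of most members' lie near the limit of the test. Of 495 values of single members in the alternative fits, 431 kept their sign and side of the threshold, 28 no longer passed, 24 newly passed and 12 changed sign, each of the last in Cnga1, Tulp1, Rdh8, Nr2e3 or Crx. The number of members that fell was 14 with DESeq2, 5 at a threshold of 0.01 and 5 to 13 on leaving out 1 library. New falls were thus not limited to fits without a library. Gngt1, Pde6g, Gucy2f, Rgs9bp and Slc24a1 newly fell with DESeq2, and Rgs9bp and Slc24a1 with limma-voom. Without a filter Gngt1, Pde6g, Guca1b and Gucy2f did. Gucy2f also did with median-of-ratios factors and with TMM without photoreceptor genes, and Gngt1 with the sex covariate. The number that rose was 2 with limma-voom, 2 without a filter, 0 with median-of-ratios factors, 0 with the sex covariate, 0 at the threshold of 0.01 and 0 to 2 on leaving out 1 library. The members that rose were Impg2, Rp1 or both. At the threshold of 0.01, 1116 genes in all rose and 647 fell, and on leaving out 1 library 1237 to 2097 rose and 761 to 1734 fell, with 769 without Normal 3, 761 without OIR 1 and 860 without OIR 2. The transcription factor median turned to 0.026 with library totals and ranged from −0.060 to 0.034 on leaving out 1 library. The activation median was −0.25 with library totals and ranged from −0.37 to −0.26 on leaving out 1 library, the former without OIR 3. Crx read 0.026 with library totals and Rdh8 −0.00026 with the sex covariate. Leaving out 1 library gave −0.015 to 0.16 for Cnga1, −0.071 to 0.088 for Tulp1, −0.060 to 0.090 for Rdh8, −0.034 to 0.053 for Nr2e3 and −0.060 to 0.034 for Crx. The cause of these shifts was not tested.

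Same-numbered libraries did not deviate together (correlations 0.061, −0.16 and 0.074), so no pairing by number was seen. With 3 libraries per group these values cannot exclude one. With the replicate number as a block, 5 members fell and 1 rose, and the transcription factors, channel and disc rim genes did not pass.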

Other observations

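Gene length moved differently with the libraries. Among the 1878 genes at least as abundant as the lowest member, the median deviation of log2 CPM from the gene's mean over the 6 libraries was −0.17 for genes under 1.5 kilobases and 0.0996 for genes over 6 kilobases in Normal 3. In Normal 1 it was 0.11 and 0.022. In OIR 3 it was 0.12 and −0.049. Among the normal libraries, Guca1a (873 bases) was lowest in Normal 3, with 173 CPM. So was Rom1 (1526 bases), with 1321 CPM, though the median for genes of 1.5 to 3 kilobases there was only −0.034. Of the members over 6 kilobases, Sag, Grk1, Cngb1 and Tulp1 were also lowest in Normal 3, and the others in Normal 1. Whether length bears on the rod values was not tested. By length class, the median log2 change of the members was −0.12 for the 3 under 1.5 kilobases, −0.16 for the 5 from 1.5 to 3, −0.18 for the 13 from 3 to 6 and −0.15 for the 12 over 6 kilobases, against 0.062, −0.066, −0.088 and −0.098 for all such abundant genes.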
